A study of Mus musculus with 8 samples.

Results

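The blood stem cell emergence and identity genes described here are Mecom, Hlf, Meis1, Procr, Cd34, Cd27, Hhex and Etv6. They were found by symbol among the non-control probes of 1-colour Agilent arrays, where 12 probes carry their names, and all 8 genes were measured, among 21794 gene symbols and 40227 features (genes and unnamed probes) in all. RNA came from PECAM-1 (CD31) bearing cells of 8 mouse embryos at E12.5 (midgestation) on the C57Bl/6J background. Of these, 4 were Gata2 +9.5 mutants (-/-) and 4 were wild type littermates, from crosses between heterozygous (+/-) parents and spread over 2 litters that each gave 2 embryos of each genotype. Livers and brains had been removed before the embryos were dissociated, the cells were pulled out with antibody-coated magnetic beads, and each embryo gave 1 RNA and 1 array, so n = 4 per genotype.

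Blood stem cells arise in the midgestation embryo from a specialised endothelium, when cells of the vessel wall take on blood identity and leave it. GATA-2 is a zinc finger transcription factor required in that step, and the +9.5 element is an intronic enhancer of its gene. The 8 genes fall into a group of nuclear factors that stem cells of the blood need or carry (Mecom, Hlf, Meis1, Hhex and Etv6) and a group of surface proteins by which such cells are recognised (Procr, Cd34 and Cd27). Cd34 and Procr are also made by ordinary endothelium, which is what CD31 beads mainly capture.

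The promoters of the members that hold a GATA hexamer are printed because the targeted gene encodes a GATA factor. Each run is the RefSeq window from 250 bases before to 50 bases after the gene's start (assembly GRCm38.p6), with the hexamer in capitals. The search covered both strands and took the hexamer AGATAA, its variant AGATAG, the related TGATAA and likewise TGATAG, each of which also holds the core GATA.
Mecom, first window, chr3:30509710-30510009, minus strand: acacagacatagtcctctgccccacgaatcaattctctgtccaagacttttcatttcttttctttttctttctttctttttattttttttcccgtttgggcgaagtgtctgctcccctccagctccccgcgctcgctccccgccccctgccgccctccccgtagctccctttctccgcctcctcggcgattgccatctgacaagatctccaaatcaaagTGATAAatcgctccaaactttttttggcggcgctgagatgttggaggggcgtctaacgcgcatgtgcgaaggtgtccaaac
Mecom, second window, chr3:30013155-30013454, minus strand: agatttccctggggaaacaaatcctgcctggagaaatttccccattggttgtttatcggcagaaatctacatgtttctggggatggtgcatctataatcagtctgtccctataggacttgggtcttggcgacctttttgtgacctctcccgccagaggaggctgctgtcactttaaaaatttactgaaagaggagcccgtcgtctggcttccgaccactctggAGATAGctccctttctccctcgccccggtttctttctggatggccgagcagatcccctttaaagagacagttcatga
Cd34, chr1:194938571-194938870, plus strand: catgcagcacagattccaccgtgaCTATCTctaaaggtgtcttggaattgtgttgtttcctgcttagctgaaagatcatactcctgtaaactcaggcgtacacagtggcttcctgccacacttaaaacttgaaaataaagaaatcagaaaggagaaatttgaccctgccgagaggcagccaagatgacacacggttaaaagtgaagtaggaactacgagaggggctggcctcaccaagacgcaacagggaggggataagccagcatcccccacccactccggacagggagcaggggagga
Cd27, chr6:125236978-125237277, minus strand: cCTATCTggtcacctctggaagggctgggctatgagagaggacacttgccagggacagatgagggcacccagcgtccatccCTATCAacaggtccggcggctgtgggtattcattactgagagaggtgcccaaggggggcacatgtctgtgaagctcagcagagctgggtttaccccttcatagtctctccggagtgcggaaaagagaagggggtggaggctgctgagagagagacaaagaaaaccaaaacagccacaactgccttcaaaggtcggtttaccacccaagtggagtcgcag
One of these hexamers was present in 4 of the 9 windows of the 8 members, beside 29.8% of 32851 windows in the reference table. In the first Mecom window TGATAA began at position -31 relative to the start, where negative positions lie upstream. The E-box CATCTG, searched on both strands and present in 2 of the 9 windows and 17.2% of all, began there at -57. In the second Mecom window AGATAG began at -27, while the match of Cd34 began at -226 and the 2 of Cd27 at -249 and -169. No window of Hlf, Meis1, Procr, Hhex or Etv6 held a GATA hexamer. The core GATA alone, on either strand, was in those of Hlf (at -31) and Hhex (at -53), beside 57.9% of all windows. The ETS core CCGGAA, on either strand, was in 2 of the 9 windows (Hlf and Meis1, beside 14.9% of all), and the RUNX core TGTGGT was in 1 (Meis1, beside 16.8%). These are letter matches and no measure of binding.

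Mecom, Cd34, Cd27 and Etv6 were each read by 2 probes of 60 bases, and the other 4 genes by 1. The first 30 bases of the pairs that both passed the filter are given, since the pairs differ in what they measured. Positions are those of the array's mm9 annotation.
Mecom, first probe (transcript NM_021442), chr3:30135491-30135550, minus strand: gttttgtccctggacacatccttgggaagg
Mecom, second probe (transcript NM_007963), chr3:29876185-29876244, minus strand: cccgcttgaagctttgaaagaaaaatactt
Cd34, brighter probe, chr1:196787392-196787451, plus strand: ccagagatgagaggattgggtgtattctct
Cd34, other probe, chr1:196785280-196785339, plus strand: taaacaagatatcgggagccaccagagcta
Cd27, brighter probe, chr6:125183076-125183135, minus strand: aaagcacacttactctaagtgaaaccgtcc
Cd27, other probe, chr6:125183200-125183259, minus strand: tgtcatggtcatcagaaccctttcctgtga
Both probes of Cd34 lie in 1 RefSeq transcript, as do both of Cd27, whereas the Mecom probes belong to different transcripts of the locus. The remaining probes lie at chr11:90200696-90200755 on the minus strand (Hlf), chr11:18780695-18780754 on the minus strand (Meis1), chr2:155580945-155581004 on the plus strand (Procr), chr19:37514969-37515028 on the plus strand (Hhex) and chr6:134216664-134216723 on the plus strand (Etv6). Their place in an exon or UTR is not given in the sources used here.

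Values are log2 of the processed intensity minus the array's own 75th percentile, so 0 is a spot as bright as that percentile. The brightest probe stands for a gene, levels of different probes are not set against each other, and differences are mutant minus wild type with the SE of the limma fit. The arrays' 75th percentiles ran from 996 to 2481 intensity units, 74.95% to 92.05% of spots were well above background, and the median SD of repeated spots was 0.093 to 0.16. Wild type samples 2 and 3 and mutant sample 4 stood apart on the first principal component (58.9% of variance), at 99.8, 158.6 and 124.2 against -128 to 23.2 in the others. All 12 endothelial markers were well above background on all 8 arrays, Pecam1 among them at 2.97 in wild type and 3.19 in mutant embryos, so the defining markers of the labelled cells were present on every array. Their summed linear level was 331 to 1090 in wild type and 408 to 995 in mutant arrays.

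Gata2 itself was the check of the labels. It read 2.00, 1.66, 0.89 and 1.42 in wild type samples 1 to 4 and -1.24, -0.15, -1.27 and -1.07 in mutant samples 1 to 4, so the genotypes did not overlap. The difference was -2.42 ± 0.388 (SE, n = 4 per genotype, 95% interval -3.28 to -1.57), which is 0.187 of the wild type level. It missed the threshold after Benjamini-Hochberg adjustment over all features (limma adjusted p = 0.0858, unadjusted p = 6.58e-05), and it passed in 5 of 23 alternative treatments of the arrays. Among all features 18 of 40227 passed (0.0447%), all of them lower in the mutant.

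None of the 8 stem cell genes differed between genotypes by the same test. Their limma adjusted p-values ran from 0.717 to 0.856, none had an unadjusted p under 0.05 (beside 3.05% of all features), and in none were the groups apart (beside 1.04%). Of the 8, 2 were lower and 6 higher in the mutant mean, against 47.6% of all features lower. Their median difference was 0.21, against 0.05 over all features and 0.21 over all gene symbols. No 95% interval reached the difference of Gata2, the lowest bounds being -1.55 for Cd27 and -1.46 for Procr.

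**Figure D1:**
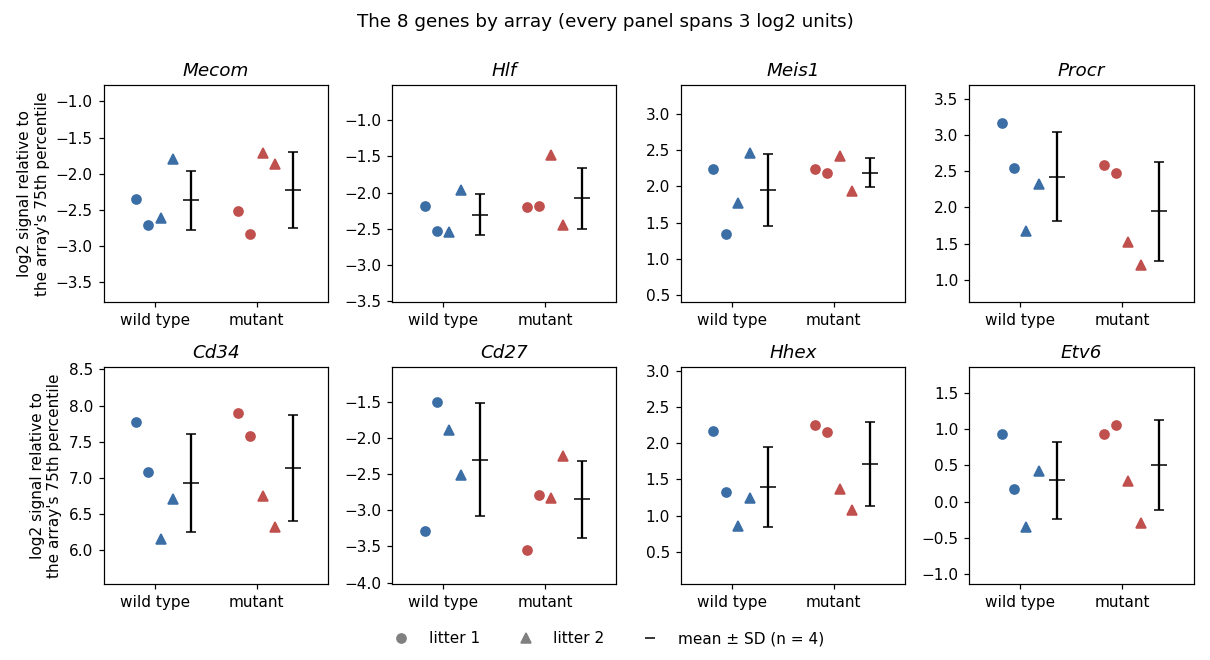
Level of each of the 8 genes on each array, in log2 relative to the array's 75th percentile, for wild type (blue) and mutant (red) embryos of litter 1 (circles) and litter 2 (triangles), with the group mean and SD (n = 4) in black. The genotypes overlap in every panel, and in the panels of Procr and Cd34 the triangles all lie below the circles.

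Among the nuclear factors, Mecom encodes zinc finger proteins (EVI1 and MDS1-EVI1) needed for the upkeep of blood stem cells. The 2 probes of Mecom belong to different transcripts of the locus, and which of these proteins each probe reports was not established. Its brighter probe read -2.35, -2.71, -2.61 and -1.80 in wild type samples 1 to 4 and -2.51, -2.83, -1.72 and -1.86 in mutant samples 1 to 4. The highest and the lowest of the 8 values were both from mutant embryos. The means were -2.37 ± 0.41 and -2.23 ± 0.53 (SD, n = 4), a difference of 0.14 ± 0.379 (SE, 95% interval -0.70 to 0.97, limma adjusted p = 0.856). As a ratio of mutant to wild type, the interval spans 0.617 to 1.96. The other Mecom probe read -2.16, -2.74, -3.04 and -2.62 in wild type samples 1 to 4 and -2.65, -2.77, -2.72 and -2.49 in mutant samples 1 to 4. Here the 4 mutant values lay within the wild type range, and the difference was -0.02 ± 0.311 (SE, 95% interval -0.71 to 0.67, limma adjusted p = 0.976 with every probe as a feature).

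Hlf encodes a bZIP transcription factor of the PAR family that is restricted to primitive cells within the blood lineage and is also made in liver. It read -2.19, -2.53, -2.55 and -1.96 in wild type samples 1 to 4, and -2.20, -2.19, -1.48 and -2.45 in mutant samples 1 to 4. Apart from mutant sample 3, the highest array, every mutant value fell within the wild type range. The difference was 0.23 ± 0.343 (SE, n = 4 per genotype, 95% interval -0.53 to 0.98, limma adjusted p = 0.755). Summed levels of 5 hepatocyte markers, a cell type that also makes Hlf, were 0.907 to 9.84 in wild type arrays and 1.18 to 72.5 in mutant arrays, with 26.5 in mutant sample 3 and 72.5 in mutant sample 4. Both of those embryos are of litter 2, where the sums were 3.83 to 72.5, against 0.907 to 1.95 in litter 1. The part of such cells in the Hlf values was not tested.

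Meis1, a TALE homeodomain partner of HOX and PBX proteins, read 2.24, 1.34, 1.77 and 2.46 in wild type samples 1 to 4. In mutant samples 1 to 4 it read 2.24, 2.18, 2.42 and 1.93, all inside the wild type range. The mutant arrays were close together (SD 0.201) and the wild type arrays less so (SD 0.497). Their means differed by 0.24 ± 0.349 (SE, 95% interval -0.53 to 1.01, limma adjusted p = 0.747).

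Hhex encodes a homeodomain repressor that acts in early endothelium, blood and liver. It read 2.17, 1.33, 0.85 and 1.24 in wild type samples 1 to 4 and 2.25, 2.16, 1.37 and 1.08 in mutant samples 1 to 4. Within both genotypes the litter 1 embryos (samples 1 and 2) were above the litter 2 embryos (samples 3 and 4). The genotypes differed by 0.32 ± 0.413 (SE, n = 4 per genotype, 95% interval -0.59 to 1.23, limma adjusted p = 0.734).

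Etv6 encodes an ETS family repressor that adult stem cells of the bone marrow need. Its brighter probe read 0.93, 0.17, -0.35 and 0.42 in wild type samples 1 to 4 and 0.93, 1.06, 0.29 and -0.29 in mutant samples 1 to 4. The values overlapped over most of their range, and the difference was 0.21 ± 0.419 (SE, 95% interval -0.72 to 1.13, limma adjusted p = 0.807). Its other probe was well above background on 2 of 4 wild type and 1 of 4 mutant arrays and did not pass the filter, so no test rests on it.

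Of the surface proteins, Procr encodes the endothelial protein C receptor (EPCR, CD201), an anticoagulant receptor that also marks blood stem cells. It read 3.17, 2.54, 1.67 and 2.33 in wild type samples 1 to 4 and 2.58, 2.48, 1.52 and 1.21 in mutant samples 1 to 4. In each litter the mean was lower in the mutants, by -0.32 in litter 1 and -0.64 in litter 2, but the groups overlapped. The difference was -0.48 ± 0.446 (SE, n = 4 per genotype, 95% interval -1.46 to 0.50, limma adjusted p = 0.717), a ratio of 0.717 with an interval of 0.363 to 1.42.

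Cd34, a sialomucin of endothelium and of blood progenitors, read 7.78, 7.08, 6.16 and 6.71 in wild type samples 1 to 4 on its brighter probe. The same probe read 7.90, 7.58, 6.75 and 6.32 in mutant samples 1 to 4. Both genotypes covered nearly the same range, and the difference was 0.21 ± 0.468 (SE, 95% interval -0.82 to 1.24, limma adjusted p = 0.825). The other Cd34 probe read 2.66, 1.89, 1.21 and 1.98 against 2.56, 2.04, 1.80 and 1.56, a difference of 0.05 ± 0.389 (SE, limma adjusted p = 0.947 with every probe as a feature). Both probes were highest in wild type sample 1 and mutant sample 1 and lowest in wild type sample 3.

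Cd27 encodes a receptor of the tumour necrosis factor receptor superfamily that is found on lymphocytes and on blood progenitors. Its brighter probe read -3.29, -1.50, -1.89 and -2.52 in wild type samples 1 to 4 and -3.55, -2.79, -2.83 and -2.25 in mutant samples 1 to 4. Wild type sample 1 lay with the low mutant values, and the other 3 wild type embryos lay higher than 3 of the 4 mutants. The difference of -0.55 ± 0.454 (SE, n = 4 per genotype, 95% interval -1.55 to 0.45, limma adjusted p = 0.717) ran from -0.29 without wild type sample 2 to -0.88 without wild type sample 1, and it was -0.32 without mutant sample 1. The second probe read -3.07, -3.81, -3.84 and -2.77 against -3.06, -3.82, -3.43 and -2.67, with a difference of the other sign, 0.13 ± 0.388 (SE, limma adjusted p = 0.87 with every probe as a feature). The 2 probes of Cd27 therefore gave no common direction. Summed levels of 6 lymphoid markers were 4.95 to 13.4 in wild type and 4.98 to 11.2 in mutant arrays, and 3 of the 6 were lower in the mutant mean. Among these Il7r was well above background on all 4 wild type arrays and 0 of 4 mutant arrays, so it passed the filter through wild type alone. Its fitted difference of -1.27 without overlap (limma adjusted p = 0.717) rests on mutant values not above background. It is therefore no measure of the size of a fall. Of 8 general leukocyte markers, 7 were lower, 4 of the 8 had an unadjusted p under 0.05 and 2 did not overlap. Over all features those shares were 47.6%, 3.05% and 1.04%. The median difference of the leukocyte markers was -0.87, with sums of 28.1 to 40.7 in wild type and 22.4 to 37.8 in mutant arrays. Such sums weigh the brightest markers most. The median level of the 8 leukocyte markers on each array was 0.76 to 1.5 in wild type and -0.29 to 0.59 in mutant arrays, without overlap. None of either list passed the threshold, and the part of these cells in the Cd27 values was not tested.

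With every probe as a feature of its own, 11 of the 12 probes of the 8 genes were tested, 3 were lower and 8 higher in the mutant mean, and none passed. The limma adjusted p-values ran from 0.717 to 0.976, none of the 11 had an unadjusted p under 0.05, and 16 of all 48099 probes passed (0.0333%).

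**Figure D2:**
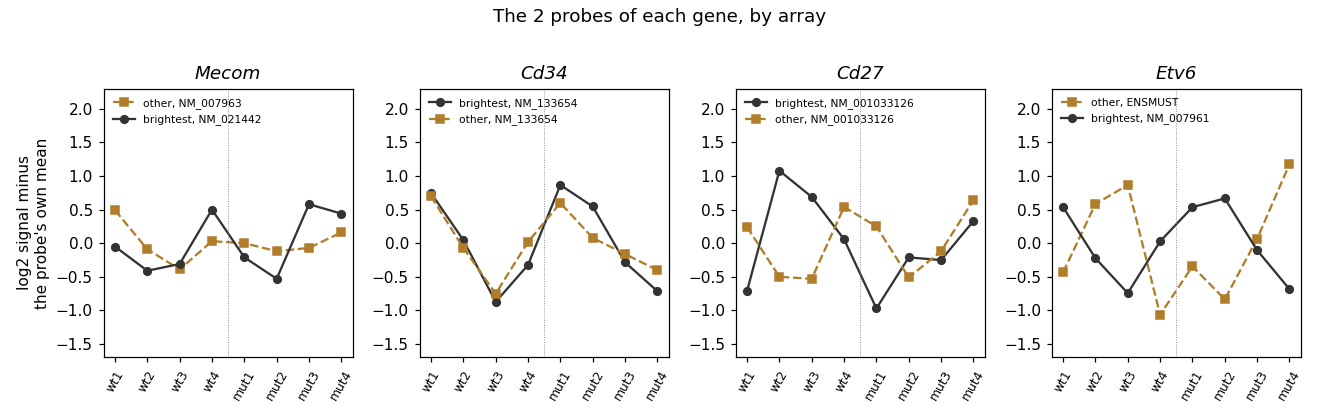
Both probes of Mecom, Cd34, Cd27 and Etv6 over the 8 arrays (wt1 to wt4, wild type samples 1 to 4; mut1 to mut4, mutant samples 1 to 4), each as log2 signal minus the probe's own mean, with the brightest probe as a solid black line and the other as a dashed brown line. The Cd34 probes rise and fall on the same arrays, whereas those of Cd27 part at wild type samples 1 to 3 and mutant sample 1; the second Etv6 probe was mostly not above background.

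The labels give the litter of each embryo, and the 4 arrays of each litter lay on 1 slide, which leaves no way to tell litter from slide. A date-like number in the sample titles splits the arrays in the same way, so it cannot be told from litter either. With genotype in the model, Cd34 was lower in litter 2 by -1.10 ± 0.296 (SE, n = 4 per litter, 95% interval -1.76 to -0.43, limma adjusted p = 0.0666). Its 4 litter 1 values ran from 7.08 to 7.90 and its 4 litter 2 values from 6.16 to 6.75, with no overlap. Procr was lower in litter 2 by -1.01 ± 0.292 (SE, 95% interval -1.67 to -0.35, limma adjusted p = 0.0811), at 1.21 to 2.33 against 2.48 to 3.17 in litter 1. Hhex differed by -0.84 ± 0.291 (adjusted p = 0.122) and Etv6 by -0.76 ± 0.325 (adjusted p = 0.184), both with overlapping litters.

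No member passed the limma threshold for litter, 4 of 8 had an unadjusted p under 0.05, and 2 of 8 did not overlap. Over all features those shares were 4.91%, 25.8% and 14.0%. The other 4 genes were higher in litter 2 on average, by 0.60 ± 0.3 for Mecom, 0.41 ± 0.43 for Cd27, 0.17 ± 0.309 for Hlf and 0.15 ± 0.319 for Meis1 (SE), with limma adjusted p-values from 0.231 to 0.76. Over all features the median litter difference was 0.325, so Hlf and Meis1 lay below it and Cd27 close to it. The second probes gave -0.65 for Cd34, 0.27 for Cd27 and -0.14 for Mecom, so the litter difference of Mecom had opposite signs on its 2 probes. Those belong to different transcripts.

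Endothelial markers moved with these litter values. Their summed level was 1090, 627, 995 and 991 in wild type samples 1 and 2 and mutant samples 1 and 2 (litter 1), and 331, 606, 607 and 408 in wild type samples 3 and 4 and mutant samples 3 and 4 (litter 2). All 12 were lower in litter 2 on average, 5 of them without overlap and 3 past the limma threshold, with a median difference of -0.92. Erythroid markers ran the other way, with sums of 312 to 659 in litter 1 and 894 to 1730 in litter 2, and so did macrophage markers, with 7.89 to 12.4 and 20.8 to 27.8. Hepatocyte markers had the largest litter difference of the 11 marker lists, higher in litter 2 for all 5 (median 2.26, 3 past the limma threshold). Fewer cells of a type and less RNA per cell cannot be told apart in such bulk samples. The part of these cell types in the Cd34, Procr, Hhex and Etv6 values was not tested. The spread of signal on an array differed too. Its interquartile range in log2 was 3.688 to 4.39 in litter 1 and 2.913 to 4.003 in litter 2. Under quantile normalization 5 of the 8 members had an unadjusted limma p under 0.05 for litter, and none passed the threshold. The part of this spread in the litter differences of single genes was not tested.

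**Figure D3:**
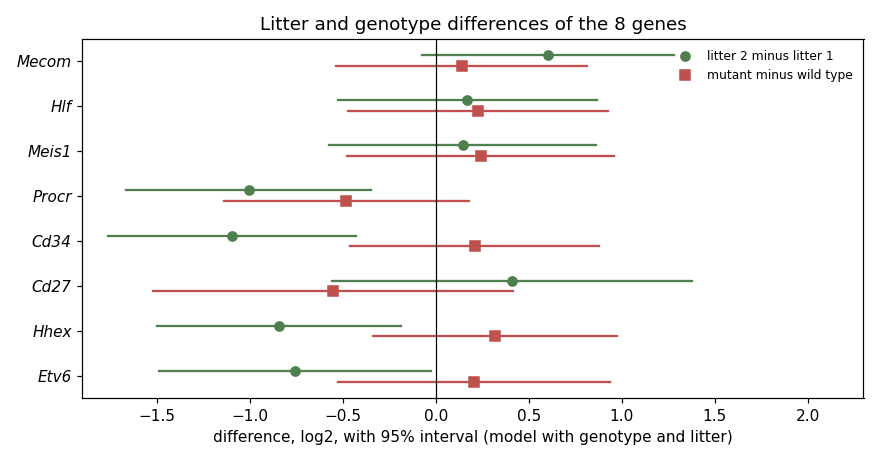
Litter differences (green circles, litter 2 minus litter 1) and genotype differences (red squares, mutant minus wild type) of the 8 genes on the log2 scale, with 95% intervals from a model that holds both. The litter intervals of Procr, Cd34, Hhex and Etv6 lie below 0, and every genotype interval spans 0.

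The genotype difference was also taken within each litter. It had the same sign in both litters for 6 of the genes; Mecom gave -0.14 in litter 1 and 0.41 in litter 2, and Etv6 gave 0.45 and -0.03. The change of the effect between litters lay between -0.48 (Etv6) and 0.55 (Mecom). None of the 8 passed the test of that change (limma adjusted p = 1 for each, none with an unadjusted p under 0.05), nor did any of the 40227 features (0%). With litter as a block the genotype intervals narrowed (Procr -1.14 to 0.18, Cd34 -0.46 to 0.88), adjusted p-values were 0.56 to 0.779, and no member was called.

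Genes with the most similar pattern over the 8 arrays were found by the root mean square difference of log2 values, each gene centred on its own mean. For Cd34 these were Ramp2 (0.07), Kcnq1 (0.079) and Sox7 (0.082), beside an SD of Cd34 itself of 0.661 over the arrays. For Procr they were Gm13889 (0.152), Clec14a (0.158) and Palmd (0.166), and for Cd27 Slc25a27 (0.169), Gm4925 (0.169) and Slamf9 (0.178). In log2 units the nearest genes of Cd27 and Procr thus lay farther off than those of the other 6 members. Such distances can grow with a gene's own SD over the arrays, which was 0.687 for Cd27, 0.655 for Procr and 0.352 for Hlf.

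Hhex lay nearest to Commd8 (0.04), Cpt2 and Usp12, Etv6 to Dele1 (0.044), Mbd6 and G6pc3, and Meis1 to Map1lc3a (0.042), Tmem115 and Flot1. Mecom lay nearest to Wwox (0.09), A430110L20Rik and Gm5901, and Hlf to Tagap1 (0.115), Sec14l1 and 6030451C04Rik. Among the 8 genes the closest pairs were Hhex with Etv6 (0.16), Cd34 with Hhex (0.165) and Hlf with Meis1 (0.223), and the farthest was Cd34 with Cd27 (1.161). These distances describe 8 arrays that share litters and slides.

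Other genes of blood stem cell emergence formed a list of 22, all measured. None passed the limma threshold, 5 had an unadjusted p under 0.05, 14 were lower in the mutant mean and 3 of those did not overlap, with a median of -0.34. Over all features the shares were 3.05% with an unadjusted p under 0.05, 1.04% without overlap and 47.6% lower, and they apply to the next lists as well. Features include unnamed probes, while these lists hold named genes only. The median difference was 0.05 over all features and 0.21 over all gene symbols, which stands beside the medians of all 3 lists. The 3 were Gata2 (above), Itga2b and Gfi1. Itga2b, the CD41 integrin subunit of the first blood progenitors and of platelets, read 1.50, 1.12, 2.09 and 2.40 in wild type samples 1 to 4 and -1.13, -0.46, -1.11 and 0.03 in mutant samples 1 to 4. Its difference was -2.45 ± 0.414 (SE, n = 4 per genotype, limma adjusted p = 0.124, past the threshold in 5 of 23 alternatives). Gfi1, a repressor that helps to close the endothelial programme, gave -1.89 ± 0.463 (SE, limma adjusted p = 0.717). It was well above background on 3 of 4 mutant arrays, and its difference was -1.17 after normexp background correction and -1.08 when quantile normalization followed. Lmo2, a bridging protein of the GATA and TAL1 complex and the brightest of the list, gave 0.62 ± 0.46 (limma adjusted p = 0.717).

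A list of 26 other genes of stem cell identity was measured in full, and 1 of them passed the limma threshold, 3 had an unadjusted p under 0.05 and 8 were lower in the mutant mean, with a median of 0.32. Slamf1, the CD150 surface receptor used to sort adult blood stem cells, read -3.33, -4.07, -3.12 and -3.55 in wild type samples 1 to 4. It was not well above background on any mutant array, so it passed the filter through the wild type arrays alone. Under the main processing it was at least 2.6-fold lower in the mutant (measured means -3.52 and -6.74, limma adjusted p = 0.0231, 0.0531 with litter as a block). That bound sets the wild type mean against the dimmest signal still called above background on each mutant array, or the probe's own value where it was higher. The call held in 8 of 22 alternatives, and the fitted difference was -3.22 here and -1.38 with dim values set to a floor (adjusted p = 0.723). After normexp background correction the difference was -0.87 (adjusted p = 0.677). That is smaller than the bound, which is 1.38 on the log2 scale, so the bound holds for the main processing only.

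Cd48 differed by -0.95 ± 0.396, Hoxb5 by 0.69 ± 0.378 and Cdkn1c, the brightest, by 0.66 ± 0.362, each with an adjusted p of 0.717. Slamf1 and Itga2b are also made in cells of the megakaryocyte lineage. Beside them, summed levels of 8 platelet and megakaryocyte markers, Itga2b among them, were 44.1 to 99.3 in wild type and 6.31 to 16.5 in mutant arrays, with 3 of the 8 past the threshold. Those of 8 mast cell and granulocyte markers were 13.7 to 25.2 and 1.68 to 3.17, with 5 past it, beside 0.0447% of all features. With litter as a block none of these 8 calls held (adjusted p from 0.0531 to 0.0643), and the part of these cells in both genes was not tested.

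Relatives and binding partners of the 8 genes made up a list of 29, of which 27 passed the filter on dim probes. None passed the test, none had an unadjusted p under 0.05, and 1 of 27 was lower in the mutant mean. Their median was 0.35, beside 0.21 over all gene symbols, with a range of -0.10 to 0.50. Nfil3, a bZIP factor that binds the same DNA sites as Hlf, gave 0.50 ± 0.342 (SE), and Meis2, a paralogue of Meis1, gave 0.48 ± 0.361. Pknox1, a TALE factor that shares the PBX partners of Meis1, gave 0.47 ± 0.351, and Ctbp1, a corepressor bound by EVI1, gave 0.35 ± 0.363. All 4 had a limma adjusted p of 0.717.

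**Figure D4:**
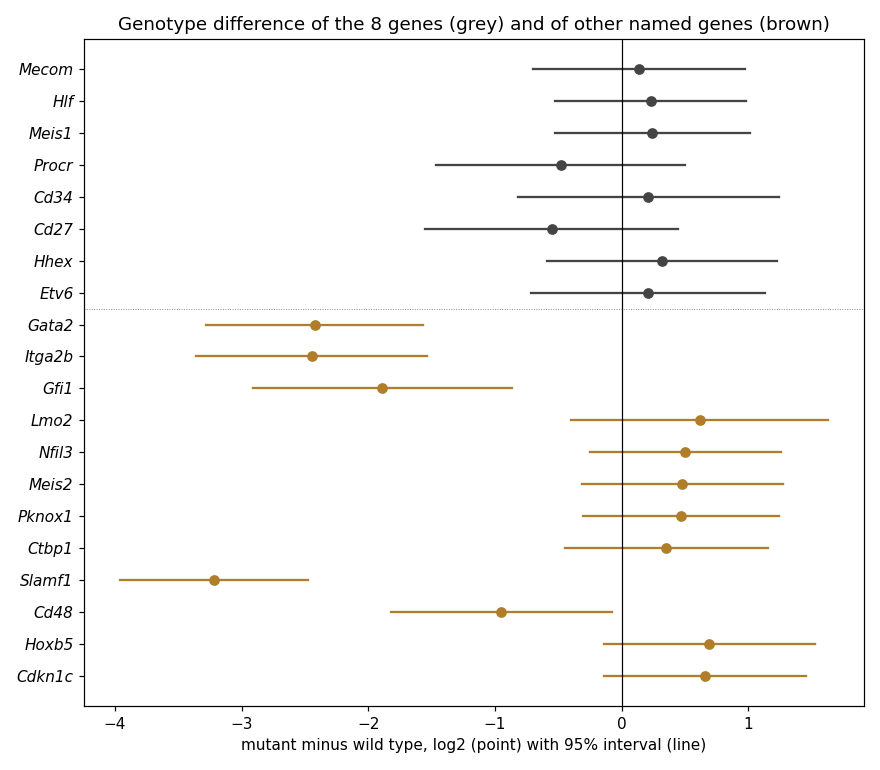
Mutant minus wild type difference on the log2 scale (points) with its 95% interval (lines) for the 8 genes (grey) and the named genes of the 3 lists (brown), from 4 arrays per genotype. Intervals of the 8 genes all span 0, while those of Gata2, Itga2b, Gfi1, Slamf1 and Cd48 lie below it; the mutant values behind Slamf1 are not above background.

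In the authors' deposited table, whose values are centred in another way, the fold change of the members on the log2 scale was 0.404 and 0.244 for the Mecom probes, 0.493 for Hlf, 0.507 for Meis1, 0.582 for Hhex and 0.471 for the brighter Etv6 probe. The authors' deposited table gives -0.215 for Procr, 0.474 and 0.319 for the Cd34 probes, and -0.288 and 0.394 for those of Cd27. Adjusted p-values of the 12 probes in the authors' deposited table ran from 0.624 to 0.816. Across 23 alternative ways of treating the arrays, Hlf, Hhex and Cd27 kept the sign of their difference in all, and Mecom changed sign in 4, Cd34 in 4, Meis1 in 3, Etv6 in 1 and Procr in 1.

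**Figure D5:**
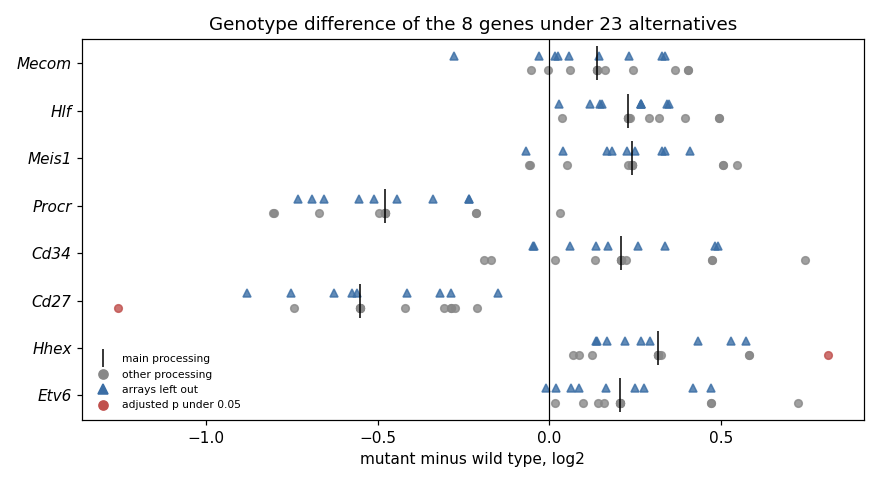
Mutant minus wild type difference of each of the 8 genes on the log2 scale under the main processing (black bar), other processing (grey circles) and with arrays left out (blue triangles), with settings at an adjusted p under 0.05 in red. The 2 red points, for Cd27 and Hhex, both come from weighting the arrays.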

How the data were processed

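RNA of CD31-enriched embryo cells was hybridised as Cy3-labelled cRNA, per the labels' protocols. In the deposited scanner files, each spot has an intensity made with Agilent Feature Extraction 10.7.3.1 and the mm9 annotation, per the file headers, with background subtracted and no normalization between arrays. The authors' deposited table holds log2 values and log2 fold changes with p-values and adjusted p-values per probe, beside t and B scores not used here, all made by the authors with limma (version not given), per the submitters' processing notes. Each of its columns for a single array equals the array's log2 signal minus a constant (column medians -0.104 to -0.063). Its fold changes are mutant over wild type.

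Here, control and outlier spots (130 to 521 per array) were left out, spots of a probe were averaged, and each array's 75th percentile was subtracted from log2 of the processed intensity. A probe was kept if at least 4 of 8 arrays had it well above background, and the brightest stood for a gene. Names came from the RefSeq table of GRCm38.p6, through the accession (26762 probes) or the symbol or an older one (4458), or else from the file (2044), and 22417 probes stayed unnamed. Groups were compared two-sided by linear models (limma 3.58.1, R 4.3.3, moderated by eBayes) with genotype only, and with litter or its interaction added. Adjustment was by Benjamini-Hochberg across every feature, at 0.05, after the scripts were tested on simulated data. The number of arrays limits the precision. Embryos are the replicates, and siblings share a litter.

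The members, gene lists and tests were chosen with earlier results of these data known. Named were the 8 genes, Gata2, in each list the genes past the threshold, the 3 with the lowest unadjusted p and the brightest one, and for each member the 3 genes of most similar pattern; 1 gene that this rule names is not reported here. Markers of 11 cell types were set beside the results; lists not named in the text had no gene past the threshold between genotypes. Sample numbers pair embryos only through the litter: deviations of samples with the same number correlated at 0.616, -0.029, -0.095 and -0.162 over features. Alternatives were other normalizations, filters, background corrections, probe summaries, weights, blocks and left-out arrays.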

Additional observations from a re-analysis of the deposited data

How the results depend on the processing

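With 4 arrays per genotype the limma SE of the 8 genes was 0.343 to 0.468. Gata2, with an SE of 0.388 in that range, missed the threshold at a difference of -2.42 (limma adjusted p = 0.0858). A difference of that size at that SE was therefore not called, so the lack of a call does not show that a member was unchanged. No member passed the threshold in the main test or in 22 of its 23 alternatives. Weighting the arrays by their estimated quality called 2 members (Cd27 at -1.26, adjusted p = 0.027, and Hhex at 0.81, adjusted p = 0.044). That setting called 19253 of all 40227 features, with weights from 0.248 (mutant sample 4) to 4.04 (mutant sample 1), and the cause was not tested. Over the 23 alternatives the lowest adjusted p was 0.604 for Mecom, 0.343 for Hlf, 0.104 for Meis1, 0.56 for Procr, 0.0947 for Cd34 and 0.0609 for Etv6. Procr was at -0.804 under quantile normalization (unadjusted p = 0.0133) and at -0.807 after normexp with quantile normalization (0.0109). The count of members called for litter, for the change of effect between litters and for single probes was 0 under every alternative run (quantile normalization and all probes, and litter as a replicate block for probes).

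The members' median of 0.21 was also 0.21 with litter or with the sample number as a replicate block, and 0.006 to 0.473 over all alternatives. Median centring moved the median of all features to 0.316, the authors' values to 0.404, normexp with the 75th percentile to 0.109, above-background probes as the base of the percentile to -0.14, and array weights to -0.151. Signs turned at small sizes: under quantile normalization Meis1 was at -0.056, Cd34 at -0.192 and Ctbp1 at -0.063, and after normexp with quantile normalization they were at -0.06, -0.169 and -0.044. With the percentile taken over probes above background on all arrays Mecom was at -0.053, and with array weights Mecom was at -0.005 and Procr at 0.03. Without wild type samples 2 and 3 and mutant sample 4, Mecom was at -0.277 and Meis1 at -0.067. Leaving out 1 array at a time gave -0.031 to 0.338 for Mecom, -0.048 to 0.49 for Cd34 and -0.009 to 0.47 for Etv6. The arrays that turned a sign were mutant sample 3 for Mecom (-0.031), wild type sample 3 (-0.048) or mutant sample 1 (-0.046) for Cd34, and wild type sample 3 for Etv6 (-0.009). The cause of these turns was not tested.

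The count over all features moved from 18 to 0 with either block, with above-background probes as the base of the percentile and without those 3 arrays. It was 1 with quantile normalization, 5 after normexp with quantile normalization, 39 with normexp and the 75th percentile, 8 with all probes, 30 with a floor, 31 with a trended robust fit, 52 with the authors' values and 0 to 24 with 1 array left out. Slamf1 lost its call without wild type sample 1 (adjusted p = 0.129), 3 (0.195) or 4 (0.151) or mutant sample 1 (0.0829) or 3 (0.103), and its adjusted p ran from 9.55e-05 to 0.723 over 22 alternatives.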
